A study of Rattus norvegicus with 4 samples.

Results

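The calcium store of the sarcoplasmic reticulum was represented by 10 genes of 32883 in the count table: Atp2a2, Pln, Ryr2, Trdn, Jph2, Casq2, Casq1, Hrc, Srl and Dhrs7c. They were chosen by name, as genes whose products fill, hold or empty the store or sit in its membrane, and each name belonged to a single gene identifier. All 10 passed the expression filter and were among the 15257 genes tested. Transcripts were measured by strand-specific RNA-seq of ribosome-depleted total RNA from ventricular cardiomyocytes of Sprague-Dawley rats at postnatal day 2, kept in serum-containing medium after a plating step meant to remove other cells. The PE group received 20 µM phenylephrine (PE), an alpha-adrenergic agonist used to induce hypertrophic growth in culture, for 24 h (2 libraries), and the control group was untreated (2 libraries). The protocol field mentions PE for every sample, so the groups were taken from the sample titles. Nothing in the labels ties a replicate to its own culture or litter, and p-values therefore measure the spread between these libraries, which may be technical.

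In a heart muscle cell, calcium that enters through voltage-gated channels opens ryanodine receptors in the junctional sarcoplasmic reticulum, and the calcium they release starts contraction. The pump SERCA2a then returns calcium to the store, where low-affinity binding proteins hold it until the next beat. Junctional proteins keep the release channel close to the surface membrane and couple it to the binding proteins. Neonatal cardiomyocytes have a less developed store than adult ones, and less pump activity is a known feature of hypertrophied and failing heart muscle.

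With PE, transcripts of the store did not move as a block. Those of both calsequestrins, Casq1 and Casq2, rose, and those of Dhrs7c, Hrc, Trdn and Atp2a2 fell. Changes called were those with a Benjamini-Hochberg adjusted p under 0.05 over all tested genes in edgeR's quasi-likelihood test. Of the 10 genes, 6 were called, against 15.7% of all tested genes. Higher levels with PE were called for 2, against 7.39% of tested genes, and lower levels for 4, against 8.3%. The median log2 fold change of the 10 was -0.46, beside -0.0064 over all tested genes, and the median of its absolute value was 0.93, beside 0.30. An absolute log2 fold change over 1 was seen in 4 of the 10 and in 12.5% of tested genes. For all 10, the PE and control libraries did not overlap, which was also so for 56.7% of tested genes. The genes were listed with earlier results of these data known, so these counts describe them and do not test them as a set.

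The control libraries held 51917449 and 45637881 counts and the PE libraries 56948370 and 48075810. The 10 genes together took 1.03% and 1.04% of counts in the control libraries and 0.732% and 0.727% in the PE libraries. Transcripts of the mitochondrial genome took 11.7% of counts in control replicate 2 and 4.61% to 6.19% in the other 3 libraries. With mitochondrial genes left out, the same number of the 10 genes was called in each direction. Levels are given below as CPM, the counts of a gene scaled to a common library size, by TMM but not scaled by transcript length, so levels of different genes are not compared.

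**Figure D1:**
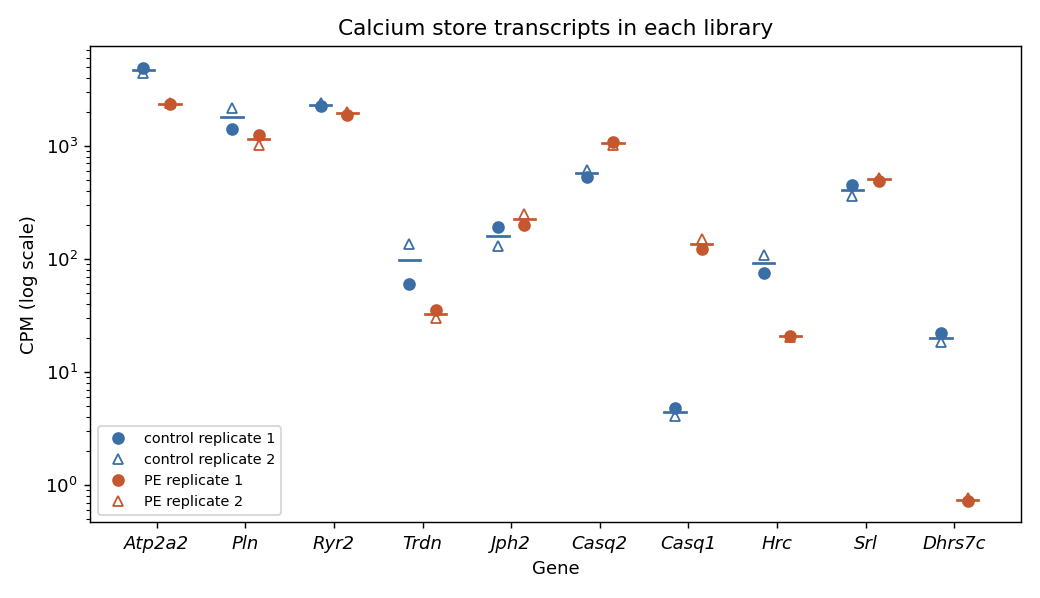
Level of each of the 10 store genes in each library, in CPM on a log axis. Filled circles are replicate 1, open triangles replicate 2, and bars the mean of the 2 libraries of a group. Casq1 lies between 4.08 and 4.83 CPM in the controls and between 122 and 151 CPM with PE, and Dhrs7c falls below 1 CPM in both PE libraries.

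RefSeq start sites on the build GRCr8 were at hand for 8 of the 10 genes, and the 250 bases before 4 of them are printed here because these genes make the contrast of the data: both calsequestrins, called higher, beside Hrc and Atp2a2, called lower. The windows are chr13:87212711-87212960 on the minus strand for Casq1, chr2:192214306-192214555 on the plus strand for Casq2, chr1:104949500-104949749 on the plus strand for Hrc and chr12:39733269-39733518 on the plus strand for Atp2a2. Each is written 5′ to 3′ on the strand of its gene. Capitals mark an E-box (CANNTG), a GC box (GGGCGG, read on either strand) or a MEF2 site.
Casq1: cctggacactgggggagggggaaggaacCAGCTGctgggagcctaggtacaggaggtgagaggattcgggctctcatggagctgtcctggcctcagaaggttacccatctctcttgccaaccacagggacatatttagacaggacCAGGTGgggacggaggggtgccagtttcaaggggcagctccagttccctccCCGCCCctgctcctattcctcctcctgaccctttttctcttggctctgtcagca
Casq2: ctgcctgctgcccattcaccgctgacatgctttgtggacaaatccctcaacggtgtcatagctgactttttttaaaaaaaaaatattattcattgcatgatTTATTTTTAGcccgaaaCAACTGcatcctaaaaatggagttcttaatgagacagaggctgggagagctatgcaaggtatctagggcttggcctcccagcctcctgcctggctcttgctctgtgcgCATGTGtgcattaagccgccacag
Hrc: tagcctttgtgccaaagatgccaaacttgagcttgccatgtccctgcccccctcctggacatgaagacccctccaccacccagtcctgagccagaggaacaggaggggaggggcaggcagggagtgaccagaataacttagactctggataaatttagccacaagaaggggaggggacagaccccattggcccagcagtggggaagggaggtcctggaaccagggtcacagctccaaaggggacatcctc
Atp2a2: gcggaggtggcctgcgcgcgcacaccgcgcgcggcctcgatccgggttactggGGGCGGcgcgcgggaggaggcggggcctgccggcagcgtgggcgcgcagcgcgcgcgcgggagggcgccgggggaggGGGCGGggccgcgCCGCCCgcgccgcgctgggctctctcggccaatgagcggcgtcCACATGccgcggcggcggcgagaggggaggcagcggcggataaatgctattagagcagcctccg

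The window of Atp2a2 was the most GC-rich of the 8, with 80.0% G or C and 45 CpG pairs. That of Hrc had 58.0% G or C and no CpG pair, and that of Trdn, not printed, had 44.0% and likewise no CpG pair. Over 33469 RefSeq windows of the same length the median was 51.2% G or C and 5 CpG pairs, and 7.83% of windows had no CpG pair. Casq1 had 59.6% with 3 CpG pairs, and Casq2 had 46.4% with 5. Among 9 motifs searched on both strands, the E-box was found in 5 of the 8 windows (65.5% of all windows), including both calsequestrins and Atp2a2. The GC box was found in 3 of 8 (30.5% of all windows), and a MEF2 site in Casq2 alone of the 8 (2.96% of all windows). The MEF2 site of Casq2 starts 149 bases before the start site, and one of its E-boxes starts 132 bases before it. The NFAT core TTTCCA was found in Trdn alone (19.7% of all windows). The GATA motif (AGATAA) was in 10.3% of all windows, the M-CAT motif (CATTCC) in 12.1% and the TATA box (TATAAA) in 12.9%, but none was in the 8. The CArG box (1.5% of all windows) and the cyclic AMP response element TGACGTCA (1.59%) were likewise in none of the 8. No 2 matches of different motifs overlapped in the 4 windows shown. A match describes letters in a window, and the files hold no measurement of binding there.

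Uptake was represented by the pump and its inhibitor. Atp2a2 (ENSRNOG00000001285) encodes SERCA2, the ATPase that pumps calcium back into the store. Its level was 4927 and 4449 CPM in control replicates 1 and 2, and 2336 and 2374 CPM in PE replicates 1 and 2. The PE libraries lay close together and well below both controls. The log2 fold change was -0.99 ± 0.18 (SE; 95% interval -1.38 to -0.60), 1.99-fold lower with PE (edgeR adjusted p = 0.00369). Leaving out PE replicate 1 gave -0.98, and the call was lost (edgeR adjusted p = 0.0599).

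Pln (ENSRNOG00000000413) encodes phospholamban, the small membrane protein that restrains SERCA2 until it is phosphorylated. Its level was 1425 and 2174 CPM in the controls and 1260 and 1022 CPM with PE. Control replicate 2 stood apart, and control replicate 1 was only a little above PE replicate 1. The log2 fold change of -0.66 ± 0.23 (95% interval -1.16 to -0.16) did not pass (edgeR adjusted p = 0.0785), whereas the authors' deposited table gives -0.66 with an adjusted p of 0.0250. It also passed without an expression filter (edgeR adjusted p = 0.00165). There the log2 fold change was again -0.66 and the SE was 0.17, so the pass came with a smaller SE and not with a larger change. Leaving out control replicate 1 gave -0.92 and leaving out control replicate 2 gave -0.32. Both fits called it, but they take the spread from the PE pair alone. RefSeq places Pln within the span of Cep85l on GRCr8. The strand setting of the authors' counting is not given in the sources used here, so reads of the 2 genes could be mixed. RefSeq likewise has a pseudogene and a long noncoding RNA overlapping Ryr2 and a pseudogene overlapping Trdn, with the same limit.

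Release was represented by the channel and its junctional partner. Ryr2 (ENSRNOG00000017060), the cardiac ryanodine receptor through which the store empties, was at 2243 and 2398 CPM in the controls and at 1879 and 2003 CPM with PE. The groups did not overlap, but the gap was small. Its log2 fold change was -0.26 ± 0.17 and did not pass (edgeR adjusted p = 0.368), with a 95% interval from -0.64 to 0.12 that holds both a fall of over 1.5-fold and a slight rise. None of the 10 alternatives called it.

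Trdn (ENSRNOG00000012609) encodes triadin, which ties calsequestrin to the ryanodine receptor. It was at 60.1 and 137 CPM in the controls and at 35.2 and 30.0 CPM with PE. The controls differed from each other 2.28-fold, the widest replicate spread of the 10 genes in either group, while the PE libraries differed 1.18-fold. PE against control gave a log2 fold change of -1.59 ± 0.32 (edgeR adjusted p = 0.00688), 3.02-fold lower with PE. Leaving out control replicate 1 gave -2.06 and leaving out control replicate 2 gave -0.88. Both fits made the call, but with a single control library neither SE takes in the gap between the controls. These calls therefore cannot show whether the fall stands against that gap. Control replicate 2 is the library with the larger mitochondrial share, and with mitochondrial genes left out the log2 fold change was -1.60 (edgeR adjusted p = 0.00804). Leaving them out changes little but the scaling, with a median shift of -0.0076 over genes. It therefore cannot show whether another difference of that library lies behind its Trdn level.

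Jph2 (ENSRNOG00000008170) encodes junctophilin 2, which bridges the store membrane and the surface membrane at the dyad, the contact where calcium entry triggers release. It was at 192 and 130 CPM in the controls and at 202 and 248 CPM with PE. Control replicate 1 and PE replicate 1 differed by little. Its log2 fold change of 0.48 ± 0.21 (95% interval 0.02 to 0.95) did not pass (edgeR adjusted p = 0.157). It was 0.80 without control replicate 1 (edgeR adjusted p = 1.8e-06, with the spread from the PE pair alone) and 0.23 without control replicate 2 (edgeR adjusted p = 0.234).

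Transcripts of the luminal calcium-binding proteins did not all move in the same direction. Casq2 (ENSRNOG00000016243), the cardiac calsequestrin and the main calcium buffer of the store, was at 536 and 612 CPM in the controls and at 1078 and 1028 CPM with PE. Both PE libraries were far above both controls, and replicates were close in each group. PE raised it by 0.88 ± 0.17 on the log2 scale (95% interval 0.50 to 1.25), 1.83-fold higher with PE (edgeR adjusted p = 0.00588). With a single PE library the size stayed near this value, but the call was lost, at 0.85 without PE replicate 1 (edgeR adjusted p = 0.123) and 0.92 without PE replicate 2 (edgeR adjusted p = 0.0725).

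Casq1 (ENSRNOG00000006930), the calsequestrin of fast skeletal muscle, had 259 and 186 reads in the controls and 6856 and 7147 with PE. In CPM these were 4.83 and 4.08 against 122 and 151. On the log2 scale the rise was 4.94 ± 0.21 (95% interval 4.47 to 5.41), 30.7-fold higher with PE (edgeR adjusted p = 2.03e-06), which ranked 12 among the 15257 tested genes from the largest rise. Reads of Casq1 made up 0.893% and 0.662% of all calsequestrin reads in the controls and 10.2% and 12.8% with PE. Casq2 thus still gave most calsequestrin reads in every library.

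Since Casq1 is a gene of skeletal muscle, markers of that tissue were read beside it. Of 13 marker names 11 were matched in the table. Myod1, Myf5 and Pax7, transcription factors of muscle precursors, had no read in any library, which allows up to 0.0535 to 0.0658 CPM (3 counts, counting error only). Myog, a factor of muscle differentiation, was at 0.0356 to 0.110 CPM across libraries. Of the 6 skeletal markers tested, 1 rose and 2 fell, beside 7.39% and 8.3% of all tested genes. Cacna1s, the skeletal calcium channel, rose by 1.74 ± 0.44 on the log2 scale, from 1.12 and 0.373 CPM to 2.16 and 2.92 CPM (edgeR adjusted p = 0.0240), and by 2.76 or 1.18 with control replicate 1 or 2 left out. The fast troponin gene Tnnt3 fell by 1.19 ± 0.30, and the muscle creatine kinase gene Ckm, which heart muscle also expresses, fell by 1.30 ± 0.18. Tnnt3 lost its call without PE replicate 1 (-1.27, edgeR adjusted p = 0.0745) or PE replicate 2 (-1.12, edgeR adjusted p = 0.120). The marker sum followed Ckm and was 689 and 569 CPM in the controls and 242 and 275 CPM with PE.

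Hrc (ENSRNOG00000020719) encodes the histidine-rich calcium-binding protein, a luminal buffer that binds both triadin and SERCA2. It had 4067 and 4926 reads in the controls and 1167 and 973 with PE, or 75.8 and 108 CPM against 20.8 and 20.6 CPM. The PE libraries were nearly equal and far below both controls. The log2 fold change was -2.15 ± 0.20 (95% interval -2.60 to -1.70), 4.44-fold lower with PE (edgeR adjusted p = 9.94e-05). It was called under all 10 alternatives, between -2.38 and -1.87.

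Srl (ENSRNOG00000005269) encodes sarcalumenin, a luminal calcium-binding glycoprotein that supports the pump. It was at 455 and 361 CPM in the controls and at 489 and 525 CPM with PE, with little distance between control replicate 1 and PE replicate 1. A log2 fold change of 0.31 ± 0.18 (95% interval -0.08 to 0.70) did not pass (edgeR adjusted p = 0.278). Of the 10 alternatives it passed in 1, without control replicate 1, at 0.50, with the spread from the PE pair alone.

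Dhrs7c (ENSRNOG00000026548) encodes a short-chain dehydrogenase of the sarcoplasmic reticulum membrane of striated muscle. It had 1181 and 835 reads in the controls and 41 and 36 with PE, or 22.0 and 18.3 CPM against 0.730 and 0.763 CPM. Its log2 fold change was -4.75 ± 0.24 (95% interval -5.29 to -4.22), 27.0-fold lower with PE (edgeR adjusted p = 4.01e-06). It ranked 18 among the 15257 tested genes from the largest fall, and stayed between -4.88 and -4.61 under the alternatives.

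**Figure D2:**
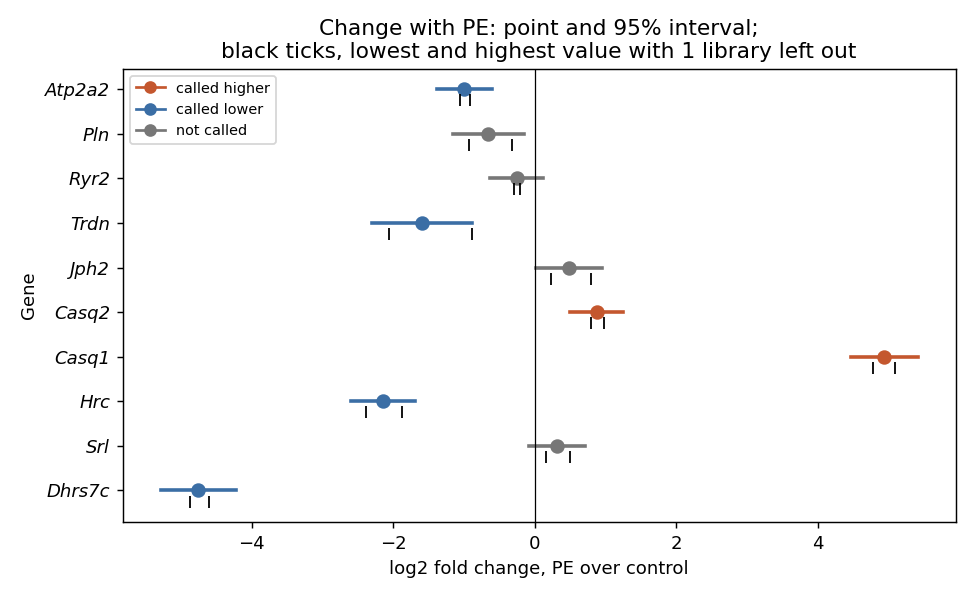
Log2 fold change of each store gene, PE over control, with its 95% interval from edgeR. Colour gives the call, and black ticks mark the lowest and highest value when a single library is left out. The intervals of Casq1 and Dhrs7c lie beyond 4 on either side, and the ticks of Trdn, from -2.06 to -0.88, are the widest apart.

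In the authors' deposited table, 7 of the 10 genes have an adjusted p under 0.05, against 16.8% of the 15231 genes that have one there. The additional gene is Pln. The log2 fold changes of the 10 genes in that table run from -4.75 for Dhrs7c to 4.94 for Casq1.

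Ratios of reads between partners in a library do not depend on scaling, and were compared for 5 pairs. The smallest two-sided p that the exact permutation test allows with 2 libraries against 2 is 0.333, so none could pass. Reads of Hrc per 100 reads of Casq2 were 14.1 and 17.7 in the controls and 1.93 and 2.00 with PE. This is an 8.04-fold lower ratio of the 2 luminal buffers with PE, with a log2 difference of -3.01 and SDs of 0.23 in the controls and 0.04 with PE (exact permutation p = 0.333, adjusted 0.417, n = 2 each). Reads of Casq1 per 100 reads of Casq2 were 0.901 and 0.667 in the controls and 11.3 and 14.7 with PE, a log2 difference of 4.06. Both pairs were separated by far more than the spread between replicates.

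Reads of Trdn per 100 reads of Ryr2, its channel partner, were 2.68 and 5.70 in the controls and 1.87 and 1.496 with PE. The groups did not overlap, and the log2 difference was -1.22, with an SD of 0.77 in the controls. Leaving out control replicate 1 moved it to -1.77, and leaving out control replicate 2 to -0.68. Reads of Jph2 per 100 reads of Ryr2 went the other way, from 8.55 and 5.41 to 10.7 and 12.4, a log2 difference of 0.76 that was 1.09 and 0.43 when control replicate 1 or 2 was left out. Reads of Pln per 100 reads of Atp2a2, the inhibitor over the pump, were 28.9 and 48.9 in the controls and 54.0 and 43.0 with PE. Here the groups overlapped, and the log2 difference of 0.36 was smaller than the SD of 0.53 between the controls (exact permutation p = 0.667, adjusted 0.667, n = 2 each).

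**Figure D3:**
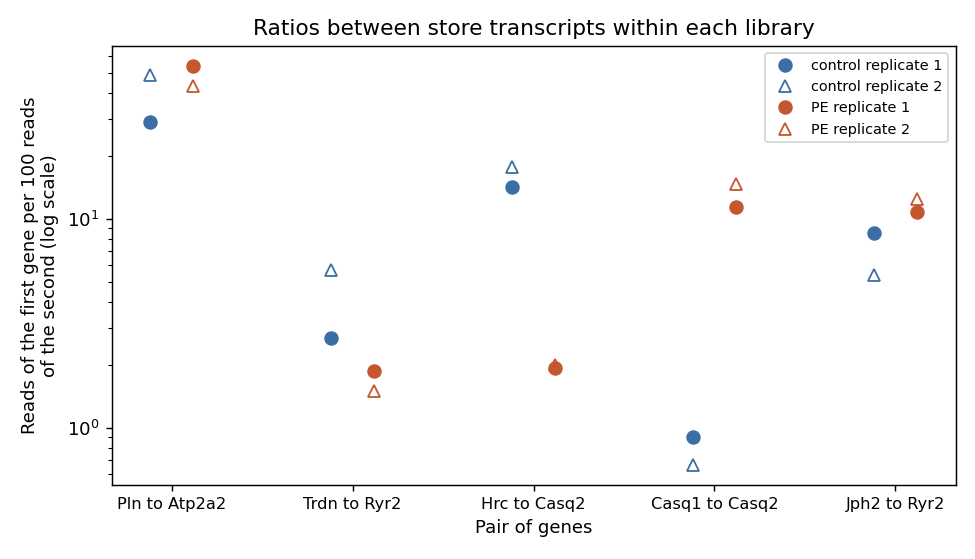
Reads of the first gene of each pair per 100 reads of the second, in each library, on a log axis. Circles are replicate 1 and triangles replicate 2. Hrc to Casq2 and Casq1 to Casq2 separate the groups widely, at 14.1 and 17.7 against 1.93 and 2.00 and at 0.901 and 0.667 against 11.3 and 14.7, while Pln to Atp2a2 overlaps between groups.

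Other genes of the same machinery were taken from 4 lists of 47 names, of which 42 were matched in the table and 39 were tested. Of these, 6 rose and 5 fell, or 28.2% called, beside 15.7% of all tested genes. Their median log2 fold change was -0.0024, beside -0.0064 over all tested genes. Among 6 tested genes of the pump and its regulators, 2 fell and 4 did not pass (median -0.15). The other names of this list, Atp2a1, Strit1, Mrln and Erln, were not matched, so these genes were not assessed. S100a1, a calcium sensor that raises pump and channel activity, fell by 0.67 ± 0.19 on the log2 scale (edgeR adjusted p = 0.0341). It went from 14.0 and 15.8 CPM to 9.51 and 9.19 CPM. With the replicate number as a block its call was lost (edgeR adjusted p = 0.115). Ppp1r1a, an inhibitor of the phosphatase that acts on phospholamban, fell by 0.91 ± 0.25 (edgeR adjusted p = 0.0306). Its level was low, at 3.39 and 3.51 CPM in the controls and 1.82 and 1.84 CPM with PE. It did not pass by the authors' deposited DESeq2 values (adjusted p = 0.0503) or with the replicate number as a block (edgeR adjusted p = 0.0510). Sln, another small pump inhibitor of muscle, was low in every library, at 1.82 to 3.14 CPM, and did not pass.

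Of 17 release channels and regulators, 4 rose, 1 fell and 12 did not pass (median 0.18). Ryr3, a ryanodine receptor that is minor in heart, rose by 1.34 ± 0.17, from 28.0 and 29.6 CPM to 65.9 and 80.1 CPM (edgeR adjusted p = 0.000576). Ryr1, the skeletal isoform, was at 0.186 and 0.197 CPM in the controls and 0.285 and 0.360 CPM with PE, and did not pass (log2 fold change 0.74, 95% interval -0.54 to 2.01). Fkbp1a, which encodes the channel-binding protein FKBP12, rose by 0.99 ± 0.17, from 197 and 167 CPM to 354 and 371 CPM (edgeR adjusted p = 0.00265). Its relative Fkbp1b, the FKBP12.6 gene, was at 1.08 and 1.03 CPM against 1.67 and 1.76 CPM and did not pass. Itpr3, an inositol trisphosphate receptor, and Speg, a kinase of the junctional reticulum, rose by 0.74 ± 0.22 and 0.70 ± 0.20 (edgeR adjusted p = 0.0483 and 0.0353). The rise of Itpr3 depended on the control library, at 1.12 with control replicate 1 left out and 0.44 with control replicate 2 left out. The gene that fell was Cmya5 (-0.56 ± 0.16, edgeR adjusted p = 0.0428). With the replicate number as a block, Speg and Cmya5 lost their calls (edgeR adjusted p = 0.0620 and 0.188). Asph, whose locus also encodes junctin, a partner of triadin, was at 69.8 and 92.0 CPM against 81.5 and 72.8 CPM and did not pass. Sln, Ryr1, Fkbp1b, Cmya5 and Asph were named after their values were seen.

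Of 10 tested genes of the dyad, T-tubule and reticulum membrane, 2 rose, 1 fell and 7 did not pass (median 0.19). Sypl2, which encodes mitsugumin 29, a membrane protein of the triad in skeletal muscle, rose by 3.07 ± 0.21, from 3.24 and 2.87 CPM to 22.9 and 28.7 CPM (edgeR adjusted p = 2.24e-05). Dysf, a membrane repair protein, rose by 0.68 ± 0.20 (edgeR adjusted p = 0.0427), or by 0.44 with control replicate 2 left out. With the replicate number as a block, Dysf lost its call (edgeR adjusted p = 0.0680). Cacna1c, the L-type calcium channel that triggers release, fell by 0.84 ± 0.16, from 328 and 319 CPM to 168 and 194 CPM (edgeR adjusted p = 0.00600). Of 6 genes of store-operated entry, Stim1, the sensor of store depletion, fell by 0.71 ± 0.20, from 55.4 and 39.3 CPM to 27.7 and 30.2 CPM, and 5 did not pass (median -0.07). Stim1 was at -0.44 with control replicate 1 left out and at -0.94 with control replicate 2 left out, and with the replicate number as a block its call was lost (edgeR adjusted p = 0.0800). Of the 11 genes called in these lists, 3 were called without PE replicate 1 (Ryr3, Fkbp1a and Sypl2), 2 without PE replicate 2 (Ryr3 and Sypl2) and 5 with the replicate number as a block.

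**Figure D4:**
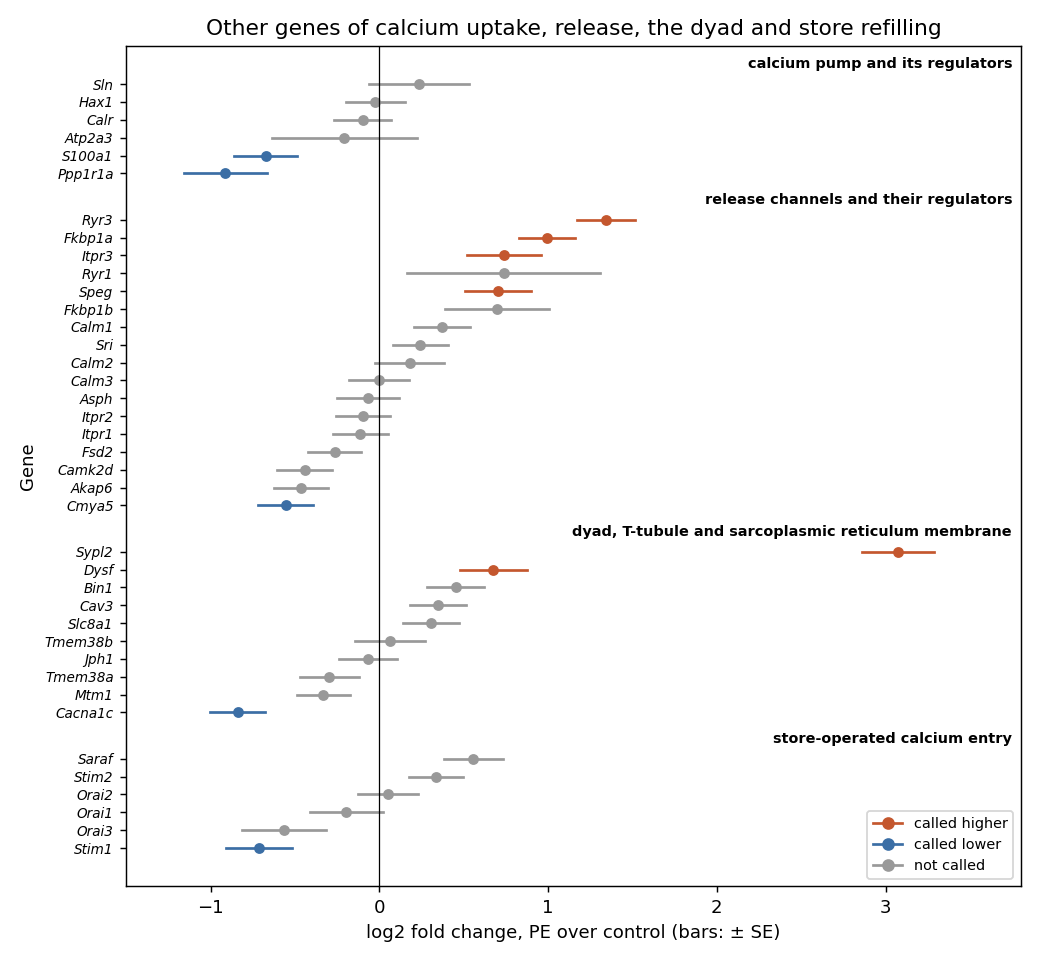
Log2 fold change, PE over control, of the 39 tested genes of 4 lists around the store, with bars of 1 SE, ordered within each list. Orange marks genes called higher, blue those called lower and grey those not called. Sypl2, at 3.07, and Ryr3, at 1.34, lie highest.

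The cells were checked against markers. Cardiomyocyte markers (7 of 8 names matched) were abundant and summed to 10141 and 10607 CPM in the controls and to 9910 and 10908 CPM with PE, and 1 of the 7, the ventricular light chain Myl2, was called higher, but not with either PE library left out (edgeR adjusted p = 0.208 and 0.288). Over all tested genes, 8.3% were called lower with PE and 7.39% higher. Of 25 tested markers of other cells, 11 were called lower and none higher, and 4 had a positive log2 fold change (Dcn, Lum, Tcf21 and Tek, 0.50, 0.11, 0.04 and 0.24). Of the 11, 3 (Col3a1, Abcc9 and Emcn) kept their call with either PE library left out. Summed levels were lower with PE for each of the 4 other cell types. The fibroblast sum was 18165 and 16275 CPM in the controls and 10082 and 9994 CPM with PE, with 2 of 7 tested genes called lower. Col1a1, Col3a1 and Postn made up 77.0% to 91.8% of that sum, while Dcn was at 683 and 1186 CPM in the controls and at 1570 and 1082 CPM with PE. The endothelial sum was 213 CPM in both controls and 126 and 130 CPM with PE (5 of 6 called lower), the macrophage sum was 167 and 189 CPM against 110 and 113 CPM (3 of 6), and the smooth muscle and pericyte sum was 756 and 671 CPM against 509 and 552 CPM (1 of 6). The call in smooth muscle and pericytes was Abcc9, at 201 and 231 CPM against 99.5 and 103 CPM. Pdgfrb, the most abundant gene of that sum, was at 474 and 372 CPM against 366 and 397 CPM, and overlapped between groups. None of the 6 genes had a positive log2 fold change. In bulk samples, fewer cells of a type and less RNA per cell cannot be told apart. Which cells gave the reads of a marker such as Abcc9 was not tested either. Beside these sums, the cardiomyocyte total overlapped between groups, but its genes did not all stay level. Actn2 was at 2285 and 1950 CPM in the controls and at 3005 and 3415 CPM with PE. Myh6 was at 2360 and 1988 CPM in the controls and at 1185 and 1795 CPM with PE, and neither gene was called. The part of cell makeup in the changes of the store genes was not tested.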

How the data were processed

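The authors deposited raw counts per gene for 4 libraries, and a table with their log2 fold changes, p-values and adjusted p-values, a mean normalized signal and a test score per gene, per the file headers. Cutadapt 2.0, STAR 2.4.2a, featureCounts 1.6.4 and the build Rnor_6.0 are named per the submitters' processing notes. How they were set, and whether counting used the strand, is not given in the sources used here. Counts were fitted with edgeR 4.0.16 (limma 3.58.1, R 4.3.3), by its quasi-likelihood F test with TMM factors and an expression filter (minimum count 10, minimum total 15), over all 15257 genes that passed. The main fit had 2 residual and 8.1 prior degrees of freedom. Each alternative was fitted anew, so its adjusted p-values can rest on other degrees of freedom. Standard errors are the log2 fold change over the square root of F, and 95% intervals use the fit's degrees of freedom. Calls need an adjusted p under 0.05. CPM values use TMM-adjusted library sizes. The fit was tested on simulated data. A chi-square test of the counts over genes gave 133 per degree of freedom between the control replicates and 19.8 between the PE replicates, so no library repeats another. Alternatives were RLE factors, no filter, DESeq2 1.42.0, a replicate block, mitochondrial genes left out, each library left out and, added after seeing the data, crossed pairing. The genes, lists and tests were chosen with earlier results of these data known. Named were all 10 genes, up to 4 called genes of each list with the largest changes, or its 2 most abundant where none was called. Promoter windows and neighbouring genes came from RefSeq on GRCr8, not the build of the counts.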

Additional observations from a re-analysis of the deposited data

How the results depend on the processing

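Of 100 log2 fold changes of the 10 store genes under 10 alternatives, none changed direction. The call was as in the main analysis in 89, lost in 3 (Atp2a2 once, Casq2 in 2 fits, each with a single PE library) and gained in 8 (Pln in 5, Jph2 in 2, Srl in 1). Store genes called numbered 4 to 9 with a library left out, those called higher 1 to 4, and those called lower 3 to 5. Genes called in all ranged from 1205 to 4755, against 2393 with all libraries. With 1 PE library the spread comes from the controls, and with 1 control library from the PE pair, which differed less. With the replicate number as a block, 6 store genes and 1964 genes in all were called. The labels do not say what a number shares, and deviations of same-numbered libraries correlated at -0.23 across genes. With the numbers crossed, a setting chosen after seeing the data, 8 store genes and 4677 genes in all were called. The log2 difference in the ratio of Pln to Atp2a2 ranged from -0.020 without control replicate 1 to 0.74 without control replicate 2; the cause was not tested. The lowest count of a store gene in a library was 36 reads, that of Dhrs7c in PE replicate 2.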
